A study of Mus musculus with 12 samples.

Results

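Genes of the unfolded protein response and the integrated stress response were followed in mouse fibroblasts with and without an inducible Ier2 construct. The set was a list of 34 gene symbols. It was given by name with no threshold on a measured value, but with earlier results of these data known. Of these symbols, 33 had a probe set among the 16475 probe sets tested, and Eif2s1 had none under its symbol. The 33 genes were read in 6 groups by role: sensors and transcription factors (6 genes), lumenal chaperones and co-chaperones (11), protein disulfide isomerases (3), genes of endoplasmic reticulum-associated degradation (6), targets of ATF4 and CHOP (5), and genes of the translocon (2).

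The endoplasmic reticulum folds proteins that are to be secreted or placed in membranes, and unfolded chains in its lumen are sensed by IRE1 (Ern1), PERK (Eif2ak3) and ATF6. IRE1 splices Xbp1 mRNA into the form that encodes an active transcription factor, ATF6 is cut to release another, and both raise genes for chaperones and for the disposal of misfolded proteins. PERK phosphorylates the translation factor eIF2, which lowers most protein synthesis but favors translation of Atf4; kinases that sense amino acid shortage, heme or double-stranded RNA reach ATF4 by the same step, and this shared branch is the integrated stress response. In fibroblasts, which secrete collagen and other matrix proteins, these genes serve routine secretion as well as stress.

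RNA came from 4 groups of cells with 3 arrays each. The inducible cells, 3T3-ind-IER2 #11, are a single clone of NIH 3T3 mouse fibroblasts with a mouse Ier2 cDNA under control of the RheoSwitch system, in which RheoSwitch ligand 1 (RSL) switches on the transgene; they were given 200 nM RSL or the same volume of its solvent DMSO and harvested after 24 h. Parental NIH 3T3 cells, without the construct, were given RSL or DMSO in the same way. The labels give a single culture medium for all samples, with G418 and hygromycin, and call the replicates biological without saying whether they were separate cultures, so the p-values speak of the spread among these arrays, which may be technical. That parental cells, without the construct, were kept in the same drugs could not be checked, so the medium may have differed between the lines. Since the inducible line is 1 clone, the construct, selection, medium and clone cannot be told apart in any difference between the lines.

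Each probe set gave 1 log2 value per array, and levels were compared between arrays for the same gene, never between genes. Array medians lay between 7.03 and 7.06. Arrays of a group correlated at 0.9981 to 0.9992 across probe sets, and arrays of different lines at 0.9913 to 0.9932. Of the fibroblast markers, 9 of 10 had a mean above the median of all probe sets, whereas 6 of 6 epithelial, 6 of 6 endothelial and 6 of 7 macrophage markers had a mean below it. None of the 33 genes had a mean below the first quartile of probe sets, and 31 were above the median. Ier2 itself read 8.50, 8.48 and 8.66 in the inducible arrays labelled RSL, against 9.07, 9.04 and 8.96 in those labelled DMSO, a log2 fold change of -0.47 (limma, adjusted p = 4.64e-05). The signal of its probe set was therefore lower, not higher, in the arrays labelled RSL. Every direction given below for RSL rests on those labels, as does every line difference given under DMSO or RSL. The position of the Ier2 probes relative to the cloned cDNA was not given in the sources used here, so the probe set may or may not read the transgene. In parental cells Ier2 read 8.82, 8.74 and 8.67 in arrays labelled RSL, against 8.60, 8.61 and 8.53 in those labelled DMSO (log2 fold change 0.17, adjusted p = 0.366, limma). Under DMSO its signal was higher in inducible than in parental arrays (log2 difference 0.45, adjusted p = 3.24e-06, limma). The line comparison under DMSO is therefore not one at equal Ier2 signal.

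The largest differences in these genes lay between the lines. Under DMSO, 19 of the 33 genes were higher in inducible than in parental cells, 1 was lower and 13 did not pass an adjusted p of 0.05 (limma, Benjamini-Hochberg over all 16475 probe sets). The lines differed widely in general: 29.7% of all probe sets were called, 15.2% higher and 14.5% lower, and the 33 genes were called in 60.6%. Among probe sets with a mean above the first quartile, as all 33 genes were, 19.4% were higher and 18.5% lower. The median log2 difference of the 33 genes was 0.12, against -0.01 over all probe sets. The 3 inducible arrays lay above the 3 parental ones in 19 genes and below them in 3, against 20% and 20.2% of all probe sets. Higher calls fell on 9 of 11 chaperones, 4 of 6 degradation genes, 3 of 5 ATF4 and CHOP targets, 2 of 6 sensors and transcription factors and 1 of 2 translocon genes, and on none of the 3 disulfide isomerases, which were not called lower either. Because these are bulk samples, more cells with a transcript and more of it per cell cannot be told apart.

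**Figure D1:**
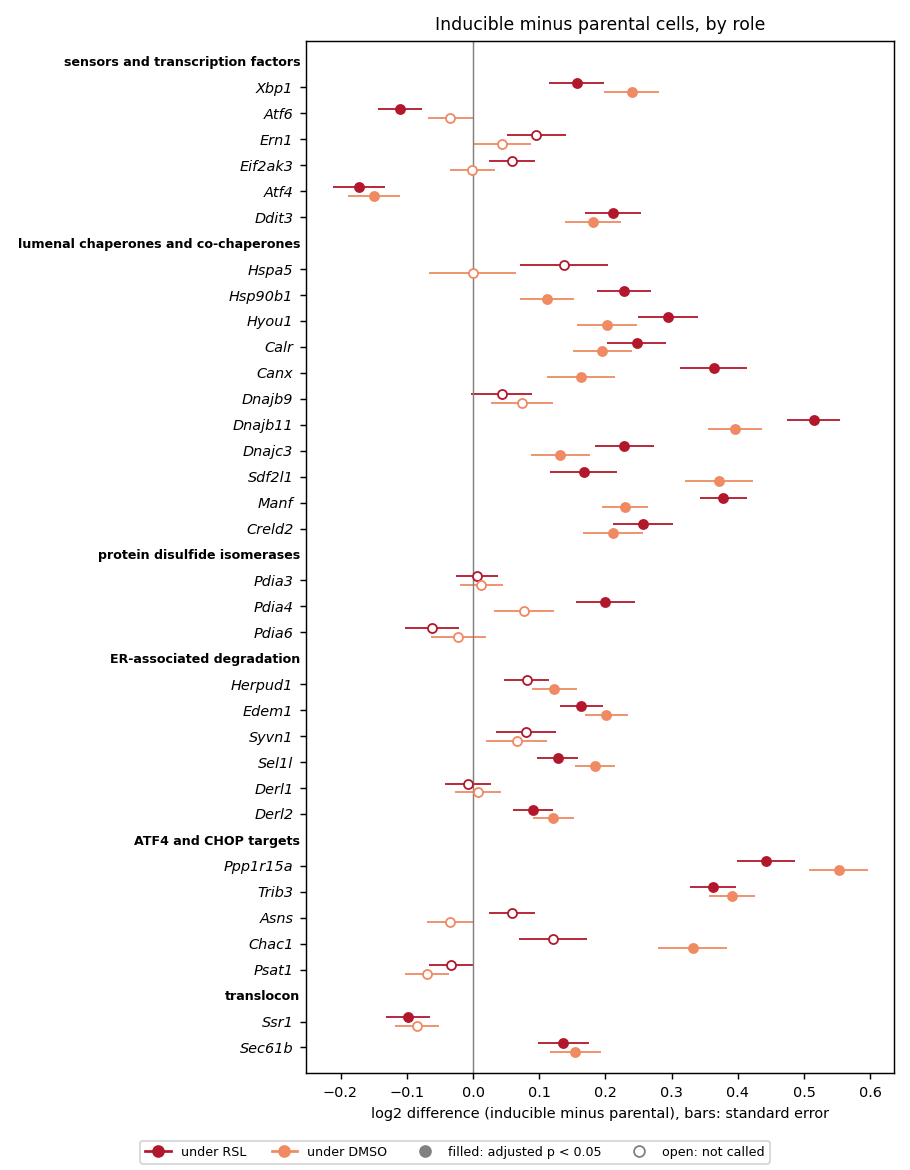
Log2 difference between inducible and parental cells (x axis, with its standard error as a bar) for each of the 33 genes, grouped by role, in the arrays labelled RSL (dark red) and DMSO (orange); filled points passed an adjusted p of 0.05 in limma. Most chaperones lie to the right of 0 in both pairs of groups. Of all 33 genes, the co-chaperone Dnajb11 and the ATF4 and CHOP target Ppp1r15a lie farthest right, while Atf4 lies to the left in both.

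Among the sensors and transcription factors, Xbp1 was the one most clearly higher in the inducible line. It read 10.08, 10.00 and 10.01 in inducible cells under DMSO, against 9.74, 9.85 and 9.78 in parental cells, with no overlap (log2 difference 0.24 ± 0.04 SE, 1.18-fold, adjusted p = 0.000251, limma). The deposited values hold 1 probe set for each of these genes, so the spliced and unspliced forms of Xbp1 were not separated. Ddit3, which encodes CHOP, a transcription factor tied to cell death under lasting stress, read 8.73, 8.57 and 8.57 in inducible cells and 8.44, 8.44 and 8.44 in parental cells (log2 difference 0.18 ± 0.04 SE, adjusted p = 0.00315, limma). Atf4, the central activator of the integrated stress response, went the other way and was the single gene called lower. It read 11.33, 11.25 and 11.19 in inducible cells, against 11.38, 11.42 and 11.40 in parental cells, again without overlap (log2 difference -0.15 ± 0.04 SE, adjusted p = 0.0076, limma). ATF4 is controlled in large part by translation, which mRNA levels do not show. The sensors themselves were not called: the 95% interval of the log2 difference was -0.11 to 0.04 for Atf6, -0.05 to 0.14 for Ern1 and -0.07 to 0.07 for Eif2ak3.

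The chaperones held 9 of the 19 higher calls. Dnajb11, a co-chaperone that brings unfolded clients to BiP, read 9.16, 9.05 and 9.10 in inducible cells, against 8.72, 8.71 and 8.69 in parental cells (log2 difference 0.40 ± 0.04 SE, 1.32-fold, adjusted p = 1.13e-06, limma). Sdf2l1, a partner of the BiP cycle that acts with DNAJB11, read 8.35, 8.25 and 8.47 in inducible cells and 8.02, 7.97 and 7.97 in parental cells (log2 difference 0.37 ± 0.05 SE, adjusted p = 2.74e-05, limma). Both genes separated the lines array by array. The other 7 chaperone genes called higher had log2 differences between 0.11 and 0.23. They were Manf (0.23), a secreted protein retained with BiP, Creld2 (0.21), Hyou1 (0.20), a large HSP70-family chaperone that exchanges nucleotide on BiP, the lectin chaperones Calr (0.20) and Canx (0.16), the PERK inhibitor Dnajc3 (0.13), and Hsp90b1 (0.11), the HSP90 of the lumen, whose adjusted p of 0.049 lay next to the threshold. Hspa5, which encodes BiP, the chaperone that these co-chaperones serve, did not differ detectably. It read 11.63, 11.43 and 11.37 in inducible cells and 11.43, 11.50 and 11.51 in parental cells, so that the groups overlapped (log2 difference 0.00, 95% interval -0.14 to 0.14, adjusted p = 0.997, limma). Dnajb9, a J-domain protein that restrains IRE1, was not called either (0.07, 95% interval -0.02 to 0.17).

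The disulfide isomerases, which form and rearrange disulfide bonds in new chains, stayed close to 0. Pdia4 had the smallest p of the 3, with 7.75, 7.69 and 7.80 in inducible cells and 7.64, 7.71 and 7.66 in parental cells (log2 difference 0.08, adjusted p = 0.236, limma). Pdia3 differed by 0.01 (95% interval -0.06 to 0.08) and Pdia6 by -0.02 (-0.11 to 0.06).

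Endoplasmic reticulum-associated degradation moves misfolded proteins back to the cytosol for the proteasome. Edem1, which picks out misfolded glycoproteins, read 8.76, 8.73 and 8.67 in inducible cells, against 8.51, 8.52 and 8.53 in parental cells (log2 difference 0.20 ± 0.03 SE, adjusted p = 0.000136, limma). Sel1l, the scaffold of the HRD1 ubiquitin ligase, differed by 0.18, Herpud1, which helps assemble that complex, by 0.12, and the membrane protein Derl2 by 0.12. The 3 inducible arrays were above the 3 parental ones for each of these 4 genes. Syvn1, the ligase HRD1 itself, and Derl1 were not called, at 0.07 (95% interval -0.03 to 0.16) and 0.01 (-0.07 to 0.08).

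The largest difference of the set was in Ppp1r15a, which encodes GADD34, the phosphatase subunit that removes the phosphate from eIF2 and so ends the translational block. It read 9.10, 9.03 and 8.90 in inducible cells, against 8.48, 8.48 and 8.41 in parental cells (log2 difference 0.55 ± 0.04 SE, 1.47-fold, adjusted p = 6.94e-08, limma). Trib3, a pseudokinase induced by ATF4 and CHOP, read 8.72, 8.70 and 8.62 in inducible cells and 8.27, 8.31 and 8.29 in parental cells (log2 difference 0.39 ± 0.03 SE, adjusted p = 2.23e-07, limma). Chac1, which degrades glutathione, read 8.79, 8.91 and 8.68 in inducible cells and 8.47, 8.48 and 8.44 in parental cells (log2 difference 0.33 ± 0.05 SE, adjusted p = 9.89e-05, limma). These 3 genes are all targets of the ATF4 and CHOP branch, and in each the inducible arrays lay above every parental array under DMSO. The 2 metabolic targets on the list were not called. Asns, asparagine synthetase, differed by -0.03 (95% interval -0.11 to 0.04) and Psat1, of serine synthesis, by -0.07 (-0.14 to 0.00). In the translocon, the channel through which chains enter the lumen, Sec61b was higher by 0.15 (adjusted p = 0.00522, limma), while Ssr1, a subunit of the associated TRAP complex, was at -0.08 (adjusted p = 0.0671, limma).

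**Figure D2:**
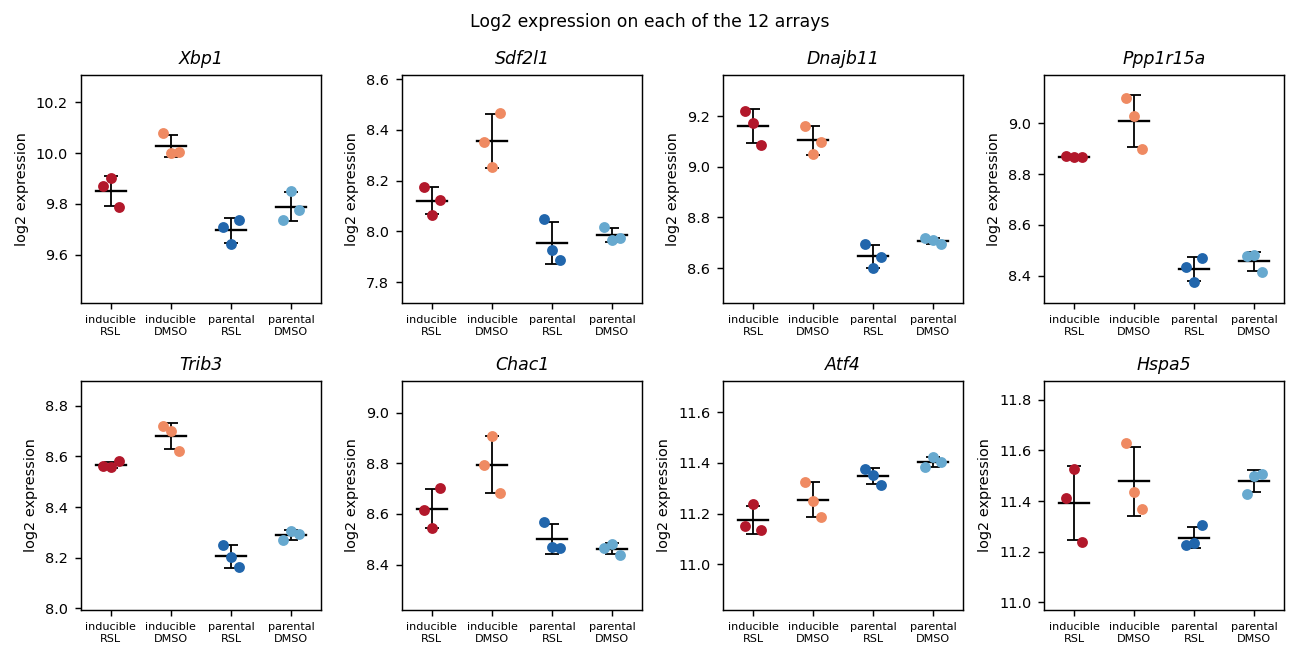
Log2 expression (y axis) of 8 of the genes in all 12 arrays (1 point per array); black bars give mean and SD of the 3 arrays per group. Dnajb11, Ppp1r15a and Trib3 have all inducible arrays above all parental arrays, whereas Hspa5 has overlapping levels; Xbp1 and Sdf2l1 are lower in the inducible arrays labelled RSL than in those labelled DMSO.

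The 6 arrays labelled RSL gave a second pair of groups, on other arrays, for the same difference between the lines; this comparison was added after the data had been seen. Under RSL, 18 of the 33 genes were higher in the inducible line and 3 were lower, beside 34.2% of all probe sets called, 17.5% higher and 16.8% lower. Of the 20 genes called under DMSO, 18 were called in the same direction under RSL, 17 of them higher and Atf4 lower (-0.17, adjusted p = 0.00254, limma). The share of all probe sets called in both pairs of groups was not counted, so this agreement is not read as particular to these genes. Herpud1 and Chac1 were not called under RSL, with log2 differences of 0.08 (adjusted p = 0.0812) and 0.12 (adjusted p = 0.0839, limma). Pdia4 was called higher only under RSL (0.20), and Atf6 (-0.11) and Ssr1 (-0.10) were called lower there, which is not a test of a difference between the 2 conditions. Dnajb11 differed by 0.51 and Ppp1r15a by 0.44 in these arrays. In 14 of the 33 genes, all 6 inducible arrays lay above all 6 parental ones, as they did in 13.2% of all probe sets. In 1 gene, Ssr1, all 6 lay below, as they did in 12% of all probe sets. For these genes the order of the lines does not depend on which inducible arrays had received RSL.

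One array weighed on the DMSO comparison. The first inducible DMSO array was the highest of its 3 in 10 of the 11 chaperones and in 23 of the 33 genes, and without it 16 genes were called, all of them among the 20. Hsp90b1, Canx, Dnajc3 and Herpud1 each lost the call there, with adjusted p between 0.0622 and 0.177 (limma), and all but Hsp90b1, which lost it in 9 of the 12 fits with 1 array left out, lost it in at most 3 of them. Some markers of cell types also differed between the lines. Under DMSO the summed log2 level of the 6 endothelial markers was 37.0 to 37.3 in inducible cells and 36.2 to 36.8 in parental cells, and that of the 7 macrophage markers 44.4 to 44.6 in inducible cells and 44.2 to 44.4 in parental cells. The sum of the 6 epithelial markers was 36.8 to 37.0 in inducible cells and 36.4 to 36.9 in parental cells, and that of the 10 fibroblast markers 103.7 to 104.6 in inducible cells and 103.2 to 103.3 in parental cells. Between the lines 1 of 6 endothelial, 1 of 6 epithelial, 1 of 7 macrophage and 5 of 10 fibroblast markers were higher and 0, 0, 1 and 3 lower, and their part in the results was not tested.

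RSL was compared with DMSO in the inducible line, where the ligand is meant to switch on the Ier2 transgene, although the Ier2 probe set read lower in the arrays labelled RSL. Only Xbp1 and Sdf2l1 passed the test, both lower in the arrays labelled RSL, and none was higher (2.54% of all probe sets called, 1.21% lower and 1.32% higher). Xbp1 read 9.87, 9.90 and 9.79 in the arrays labelled RSL, against 10.08, 10.00 and 10.01 in those labelled DMSO (log2 fold change -0.18 ± 0.04 SE, 1.13-fold lower, adjusted p = 0.0296, limma). Sdf2l1 read 8.18, 8.07 and 8.12 in the arrays labelled RSL, against 8.35, 8.25 and 8.47 in those labelled DMSO (log2 fold change -0.24 ± 0.05 SE, 1.18-fold lower, adjusted p = 0.0189, limma). In both genes the groups did not overlap. Both calls depended on single arrays: without the first inducible DMSO array, or without the third inducible RSL array, neither gene passed, with adjusted p of 0.158 and 0.134 for Xbp1 and 0.0685 and 0.0533 for Sdf2l1 (limma). The third inducible RSL array was the lowest of its 3 in 10 of the 11 chaperones, and the first inducible DMSO array was the highest of its 3 in the same number. Xbp1 also lost the call without either of the other 2 inducible DMSO arrays or the first inducible RSL array, and Sdf2l1 without the third inducible DMSO array or the second inducible RSL array. With 3 arrays against 3, a two-sided exact permutation test of 1 gene cannot give a p under 0.1.

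The other 31 genes were not called in that comparison. The median log2 fold change of the 33 genes was -0.04, against 0.00 over all probe sets. Of these genes 22 were below 0 and 11 above, beside 7873 of all 16475 probe sets below 0. In 9 genes the groups did not overlap, all with lower values in the arrays labelled RSL, beside 8.75% of all probe sets. Chac1 had the smallest p among the targets of ATF4 and CHOP, with 8.62, 8.54 and 8.70 in the arrays labelled RSL and 8.79, 8.91 and 8.68 in those labelled DMSO (log2 fold change -0.17, adjusted p = 0.106, limma). Herpud1 read 8.88, 8.85 and 8.94 under RSL and 9.04, 8.97 and 8.99 under DMSO (-0.11, adjusted p = 0.132, limma). Pdia6 was at -0.10 (adjusted p = 0.328) and Sec61b at 0.02 (adjusted p = 0.941, limma). At an unadjusted p under 0.05, 7 genes were lower and 0 higher, beside 6.04% and 6.29% of all probe sets, and the 5 beyond the called pair were Chac1, Trib3, Ppp1r15a, Herpud1 and Pdia6. For the other sensors and transcription factors the intervals of the log2 fold change were -0.16 to 0.00 for Atf4, -0.10 to 0.08 for Ddit3, -0.10 to 0.04 for Atf6, -0.06 to 0.13 for Ern1 and -0.04 to 0.10 for Eif2ak3. For the chaperone gene Hspa5 the interval was -0.22 to 0.06.

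**Figure D3:**
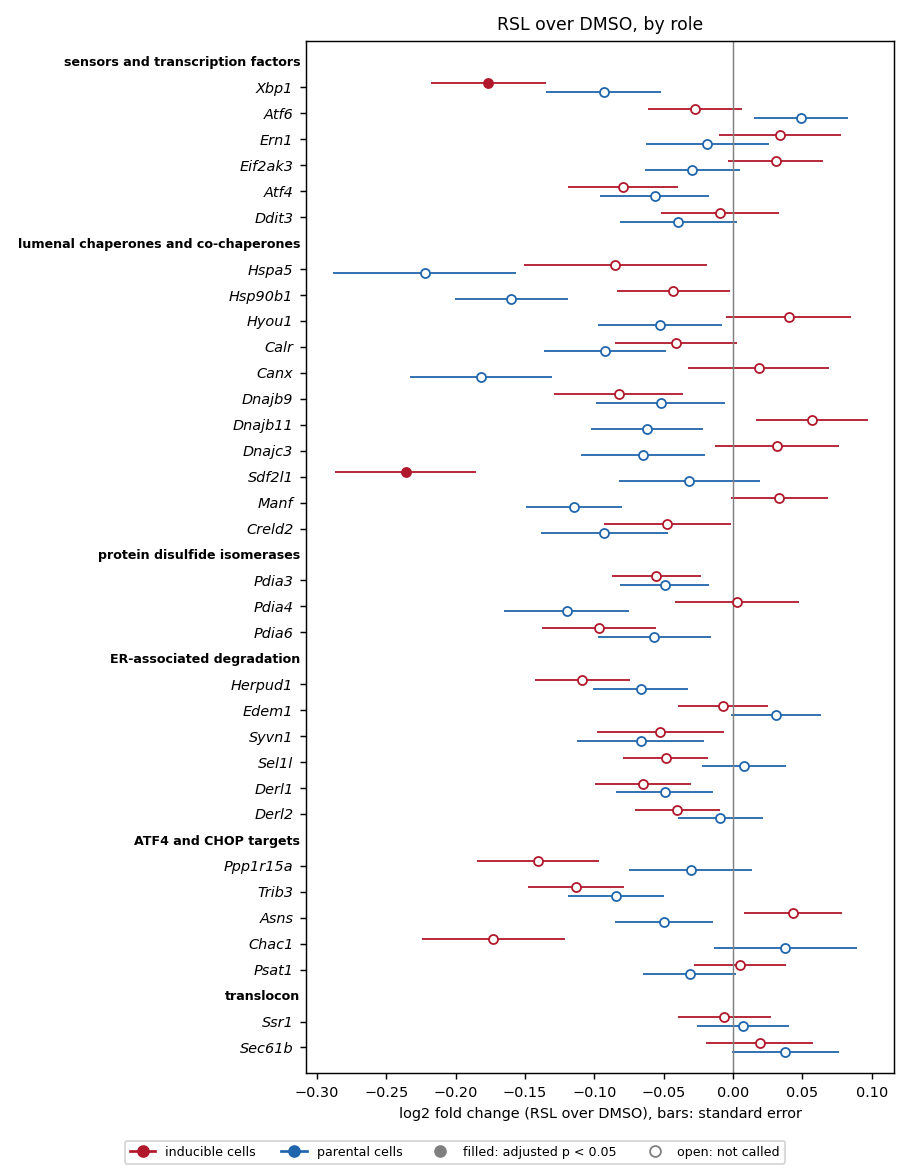
Log2 fold change of RSL over DMSO (x axis, with its standard error as a bar) for each of the 33 genes, grouped by role, in inducible cells (dark red) and parental cells (blue); filled points passed an adjusted p of 0.05 in limma. Xbp1 and Sdf2l1 in inducible cells are the only filled points, and most points of both lines lie within 0.2 of 0 and to its left.

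In parental cells, which lack the construct, RSL measures the effect of the ligand alone. None of the 33 genes was called there, and only 0.0303% of all probe sets were. At an unadjusted p under 0.05 in limma, 7 of the genes were lower and 0 higher, against 4.9% and 4.81% of all probe sets. Hspa5 read 11.23, 11.24 and 11.30 in parental arrays labelled RSL, against 11.43, 11.50 and 11.51 in those labelled DMSO (log2 fold change -0.22 ± 0.07 SE, adjusted p = 0.366, limma). Hsp90b1 read 12.11, 12.14 and 12.13 under RSL and 12.27, 12.30 and 12.29 under DMSO (-0.16 ± 0.04 SE, adjusted p = 0.278, limma), and Canx was at -0.18 (adjusted p = 0.366). In these 3 chaperones the parental groups did not overlap, but the differences did not pass the adjustment. The remaining 4 were Manf (-0.11), Pdia4 (-0.12), Trib3 (-0.08) and Xbp1 (-0.09). All 11 chaperones had a log2 fold change below 0 in parental cells, with a median of -0.09, where 6 of the 11 were below 0 in inducible cells with a median of -0.04. The median of the 33 genes in parental cells was -0.05, against 0.01 over all probe sets. Of these genes 27 were below 0, beside 7316 of all 16475 probe sets. The groups did not overlap in 11, all lower, beside 6.15% of all probe sets.

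Whether the lines differ in their RSL effect asks if a response belongs to the cells with the construct. It was not called for any of the 33 genes (0.662% of all probe sets), and at an unadjusted p under 0.05 in limma it picked out 4, 2 in each direction, beside 9.07% of all probe sets. Sdf2l1 fell by 0.24 in inducible cells, against a log2 fold change of -0.03 in parental cells, a difference of -0.20 (95% interval -0.36 to -0.05, adjusted p = 0.321, limma). Chac1 differed by -0.21 (-0.37 to -0.06, adjusted p = 0.307), Canx by 0.20 (0.05 to 0.35, adjusted p = 0.339) and Manf by 0.15 (0.04 to 0.25, adjusted p = 0.28, limma). For Xbp1 the difference was -0.08 (95% interval -0.21 to 0.04, adjusted p = 0.749, limma), so its lower level under RSL was not shown to be particular to the inducible line.

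A wider list of 120 genes of the same pathways, outside the 34, had 115 members on the array. It was drawn from textbook knowledge, but with earlier results of these data known. In inducible cells 1 of them was higher and 3 were lower in the arrays labelled RSL, which is 3.48% called, beside 2.54% of all probe sets. Cth, which makes cysteine in the transsulfuration pathway, read 8.13, 8.16 and 8.03 in the arrays labelled RSL and 8.46, 8.39 and 8.37 in those labelled DMSO (log2 fold change -0.30, adjusted p = 0.00424, limma). Gpt2, the mitochondrial alanine aminotransferase, was at -0.19 (adjusted p = 0.0109) and Eif4ebp1, an inhibitor of cap-dependent translation, at -0.16 (adjusted p = 0.00964, limma). These 3 stand in the lists of integrated stress response genes, as does the 1 gene called higher. Ddit4, which restrains mTORC1 under stress, went the other way, with 9.91, 9.99 and 9.94 in the arrays labelled RSL and 9.80, 9.76 and 9.67 in those labelled DMSO (0.20, adjusted p = 0.0236, limma). None of the 115 was called in parental cells (limma), where 2 were higher and 17 lower at an unadjusted p under 0.05, beside 4.81% and 4.9% of all probe sets. Left out singly, inducible arrays ended the call of Gpt2 in 3 fits, of Ddit4 in 4 and of Eif4ebp1 in 1, with adjusted p of 0.056 to 0.11 (limma), and that of Cth in none.

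Between the lines under DMSO, 31 of the 115 genes were higher in inducible cells and 27 lower (50.4% called, beside 29.7% of all probe sets, 15.2% higher and 14.5% lower). The aminoacyl-tRNA synthetases, which ATF4 raises when amino acids run short, were mostly on the lower side: 6 of 12 were lower and 1, Yars (0.12), was higher, with a median log2 difference of -0.11 (58.3% called). Mars1 read 9.98, 9.94 and 9.89 in inducible cells and 10.18, 10.28 and 10.24 in parental cells (log2 difference -0.30, adjusted p = 2.13e-05, limma), and Tars differed by -0.26. Of 17 amino acid supply genes, 4 were higher and 7 lower (64.7% called). The transporters Slc7a1 (0.23) and Slc7a11 (0.19) were higher, whereas Pck2 (-0.35) and the glutamine transporter Slc1a5 (-0.32) were lower. Among 21 kinases, regulators and stress genes (52.4% called), 7 were higher, including the transcription factor Cebpb (0.42) and the hormone Fgf21 (0.40), and 4 were lower, including Ddit4 (-0.50) and Eif2ak4 (-0.37), the kinase GCN2 that senses uncharged tRNA.

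Further genes of protein folding were higher in 8 and lower in 3 of 28 (39.3% called, beside 29.7% of all probe sets), with Fkbp14 (0.25) and Dnajc1 (0.15) on one side and Fkbp7 (-0.23) and Mbtps1 (-0.14), a protease that cuts ATF6, on the other. Further degradation genes were higher in 7 and lower in 3 of 17 (58.8% called). Ufd1 (0.30) and Nploc4 (0.29), which together hand ubiquitinated proteins to the segregase VCP, were higher, and Faf2 (-0.23) and Ube2g2 (-0.20) were lower. Of 20 further genes of the translocon, signal peptidase and oligosaccharyltransferase, 4 were higher and 4 lower (40% called), with Stt3b at 0.25, Tram1 at 0.17, Ssr2 at -0.14 and Sec63 at -0.14.

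**Figure D4:**
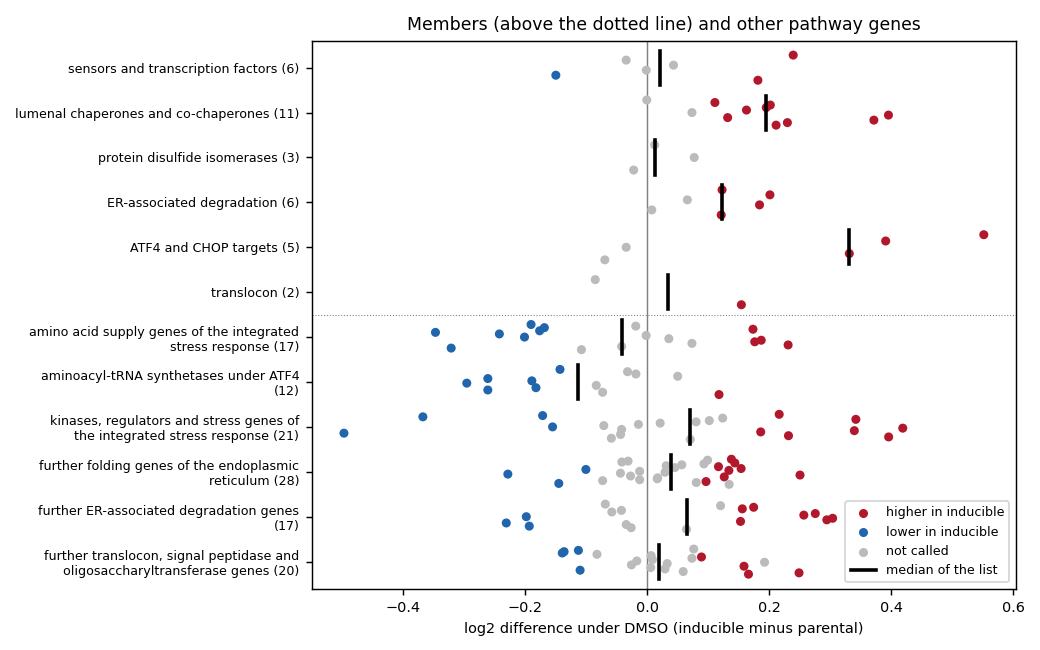
Log2 difference between inducible and parental cells under DMSO (x axis) for each gene (points) of the 6 role groups of the 33 genes (above the dotted line) and of 6 further pathway lists (below it), with the number of genes in brackets and each list's median drawn as a black bar; red points were called higher, blue lower, grey not called. The chaperones and the ATF4 and CHOP targets have medians of 0.20 and 0.33, and the aminoacyl-tRNA synthetases one of -0.11.

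The start regions of the genes were searched for the short elements through which the response is known to act. Windows of 250 bases before and 50 bases after the annotated start were taken from RefSeq (build GRCm38.p6) for 29 of the 33 genes, which had 31 windows. The endoplasmic reticulum stress element, ERSE, was searched as CCAAT and CCACG with any 9 bases between, its variant ERSE-II as ATTGG and CCACG with any 1 base between, the XBP1-type element UPRE as TGACGTGG, and the CEBP-ATF element CARE as TGATG and AA with any 1 base between, each on both strands. ERSE and ERSE-II share CCACG and the letters CCAAT, which read ATTGG on the other strand, but differ in spacing and orientation, and no stretch matched both.

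ERSE was found in 8 of the 29 genes (27.6%), against 0.119% of all 32851 windows of that length. The former share counts genes and the latter windows. The genes were listed as members of the response that the element is known to serve, so the higher share is not a finding of these data. The same holds for the other elements below. The stretches are shown because they hold the element on which ATF6 is known to act with NF-Y; they are read along the element, with its fixed letters in capitals.
Calr: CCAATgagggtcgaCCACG
Canx: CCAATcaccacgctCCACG
Creld2: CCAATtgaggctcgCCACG
Dnajc3: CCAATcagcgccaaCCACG
Hsp90b1: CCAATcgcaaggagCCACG
Hsp90b1 again: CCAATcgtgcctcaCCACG
Hspa5: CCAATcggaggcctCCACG
Pdia6: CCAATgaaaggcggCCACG
Syvn1: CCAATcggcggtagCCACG

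The element lay within the 250 bases before the start in each of these genes, and between the lines 5 of the 8 were higher in inducible cells under DMSO and 3, Hspa5, Pdia6 and Syvn1, were not called. In Hspa5 it lay 65 to 47 bases before the start. The median log2 difference was 0.13 for the 10 genes with ERSE or ERSE-II and 0.12 for the 19 with neither. ERSE-II was found in Dnajb11 and Herpud1, both higher in inducible cells, and in 0.0365% of all windows. CARE was found in Asns, Chac1, Herpud1 and Trib3 (13.8%, against 3.97% of all windows), of which 3 were higher in inducible cells and Asns was not called. UPRE was found in 0 of the 29 genes and in 0.676% of all windows. A match of letters is a description of the window and was not tested as a binding site.

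The windows of Dnajb11, Hspa5 and Chac1 are shown in full, as those of the chaperone with the largest difference between the lines, of BiP, which was not called, and of the gene with the smallest p for RSL in inducible cells among the 5 ATF4 and CHOP targets of the set. They lie at chr16:22857595-22857894 (plus strand), chr2:34771840-34772139 (plus strand) and chr2:119350992-119351291 (plus strand), the capitals mark ERSE-II, ERSE and CARE, the last read on the other strand, and the gene starts at base 251.
Dnajb11: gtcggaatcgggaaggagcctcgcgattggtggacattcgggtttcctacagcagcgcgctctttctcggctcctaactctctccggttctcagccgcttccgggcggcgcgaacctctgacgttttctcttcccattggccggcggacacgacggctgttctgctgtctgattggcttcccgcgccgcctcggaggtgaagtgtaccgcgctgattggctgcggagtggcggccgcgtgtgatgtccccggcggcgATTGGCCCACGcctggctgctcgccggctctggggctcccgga
Hspa5: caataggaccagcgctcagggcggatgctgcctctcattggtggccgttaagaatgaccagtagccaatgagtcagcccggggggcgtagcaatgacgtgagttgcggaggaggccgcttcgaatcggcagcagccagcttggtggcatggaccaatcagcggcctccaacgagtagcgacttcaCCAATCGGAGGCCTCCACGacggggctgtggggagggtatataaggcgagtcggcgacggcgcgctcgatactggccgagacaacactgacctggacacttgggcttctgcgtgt
Chac1: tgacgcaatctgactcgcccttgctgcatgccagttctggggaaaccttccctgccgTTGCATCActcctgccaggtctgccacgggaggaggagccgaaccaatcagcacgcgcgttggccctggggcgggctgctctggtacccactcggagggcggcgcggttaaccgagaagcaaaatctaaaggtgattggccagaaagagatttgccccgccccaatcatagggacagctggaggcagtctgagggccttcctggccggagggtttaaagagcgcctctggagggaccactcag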

How the data were processed

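Total RNA of 12 samples was hybridised to Affymetrix Mm430_2.0 arrays. The deposited values are log2 expression values that the authors made with RMA background correction and quantile normalization over probe sets redefined by gene (Custom CDF); the base of the logarithm was read from their range (5.19 to 14.32), and the step from probes to probe sets was not given in the sources used here. Of 16539 probe sets, 64 hybridization controls were left out; 15780 of the 16475 tested carried 1 gene symbol. One model of 4 group means was fitted on all 12 arrays with limma 3.58.1 in R 4.3.3 (8 residual degrees of freedom, values as deposited, no filter), and p-values were adjusted by Benjamini-Hochberg over all 16475 probe sets. The number of arrays limits the precision. The script was tested on simulated data.

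The members and gene lists were chosen with earlier results of these data known. Genes named were the sensors, their main transcription factors, Hspa5 and Sdf2l1; all genes called in a comparison with RSL; up to 6 per direction with the largest called difference between lines; and, per role, the gene with the smallest p in the inducible RSL and the line comparison. From further lists, called genes were named, at most 4 by p for RSL and 2 per direction for the lines. Other members named by value were chosen after their values were seen. Replicate numbers were not used to pair the arrays in the main fit. Alternatives are given in the closing section.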

Additional observations from a re-analysis of the deposited data

Results flagged for a closer look

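Ddit4, a stress-induced inhibitor of mTORC1 outside the 34 genes, responded differently to RSL in the lines. It read 9.91, 9.99 and 9.94 in inducible arrays labelled RSL, against 9.80, 9.76 and 9.67 in those labelled DMSO, and 10.13, 10.07 and 10.10 in parental arrays labelled RSL, against 10.14, 10.26 and 10.32 in those labelled DMSO. The difference of the log2 fold changes was 0.34 (95% interval 0.21 to 0.48, adjusted p = 0.0175, limma), and it lost the call when any of 4 single arrays was left out (adjusted p of 0.0568 to 0.0642).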

How the results depend on the processing

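The line comparison under DMSO gave 15 to 22 called genes over the alternatives, against 20, with 14 to 20 of those 20 among them, and 16 to 20 when an array was left out; 16 of the 20 genes held in each of those 12 fits. For RSL in inducible cells, against 2 called genes, the replicate block gave 1 (Xbp1 lost, adjusted p = 0.0601, limma), array weights 5, the methods' one-way analysis 0 after adjustment and 5 before, an unadjusted p under 0.05 in limma 7, and leaving out arrays 0 to 2; without the third inducible DMSO array the 2 called genes were others than Xbp1 and Sdf2l1. For RSL in parental cells, against 0, array weights gave 1, the one-way analysis before adjustment 7, an unadjusted p 7, and leaving out arrays 0 to 0. For the difference of the RSL effects, against 0, array weights gave 1, an unadjusted p 4, and leaving out arrays 0 to 0; the one-way analysis was not run for it, and a fit on the compared groups alone is the fit on all 12 arrays. Over all probe sets array weights gave 736 calls for RSL in inducible cells (against 418), 106 in parental cells (against 5) and 375 for the difference (against 109); the adjusted one-way analysis gave 1 in inducible and 0 in parental cells; and leaving out arrays gave 204 (without the first inducible DMSO array) to 457 in inducible cells, 1 (without the second parental RSL array) to 12 (without the third inducible RSL array) in parental cells, and 56 (without the first inducible DMSO array) to 144 for the difference. The cause was not tested. Of 611 values of single named genes under alternatives, 554 kept direction and call and 57 kept direction only, and none reversed. Some of these alternatives could not change a direction, such as an unadjusted p or leaving out an array outside the comparison. Same-numbered arrays had deviations correlated at -0.296 to 0.219, and at 0.066, -0.007 and 0.214 between inducible RSL and DMSO arrays. With 3 arrays per group, this cannot tell whether same-numbered arrays shared a batch. The replicate block left 19 of the 20 line calls, losing Dnajc3 (adjusted p = 0.0539, limma). Subtracting array medians or repeating quantile normalization moved the median of all probe sets by less than 0.01, and the 12 arrays come from 1 clone and its parental line.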
